A study of Mus musculus with 12 samples.

Results

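Insulin and insulin-like growth factors bind receptor tyrosine kinases on the cell surface, which phosphorylate the insulin receptor substrates (IRS adaptors). The adaptors recruit phosphoinositide 3-kinase (PI3K), whose lipid product brings the kinase AKT to the membrane, and AKT phosphorylates the forkhead box O (FoxO) transcription factors, so that they leave the nucleus. When the pathway is quiet, FoxO factors stay in the nucleus and switch on genes for cell cycle arrest, fasting metabolism and stress resistance, and *Irs2* and the insulin receptor gene are themselves known FoxO targets. This control acts on the proteins, and mRNA levels do not show whether AKT or a FoxO factor was phosphorylated.

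The 10 genes described here are the receptors *Insr* and *Igf1r*, the adaptors *Irs1*, *Irs2* and *Pik3ap1*, the kinases *Akt1* and *Akt2*, and the factors *Foxo1*, *Foxo3* and *Foxo4*. They were chosen by name, with earlier results of these data known. They are the genes with these symbols among the 47729 genes of the count table. All 10 were found once and passed the filter on low counts in every comparison.

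The sequenced RNA came from small intestinal stem cells (ISCs), sorted by bright green fluorescence (Lgr5-EGFPhi) and as EpCAM+, CD24-, CD31-, CD45- and TER119- live cells. The mice carried the *Lgr5-EGFP-IRES-creERT2* allele, which makes green fluorescent protein and a tamoxifen-inducible Cre from the *Lgr5* locus. All 4 groups carried this allele and had 3 libraries each, from mice aged 8 to 10 weeks of both sexes, with the sex of each library not given in the sources used here. Ctrl mice were not restrained and, under the restraint protocol of the study, went without food and water for the same time. Stress mice were restrained for 3 h on 1 day. Vehicle mice received an intraperitoneal injection of sulfobutylether-β-cyclodextrin, and CORT mice received corticosterone at 5 mg/kg in that solution, once. The labels number the stress libraries 1+2, 3 and 4+5+6, which reads as pooled mice in the joined ones. The study states that mice had food and water ad libitum except where noted, and its methods note no deprivation for injected mice. By these protocols vehicle and Ctrl mice differed in injection and in feeding, and these cannot be told apart.

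Depth differed between groups. The Ctrl libraries held 16152289 to 16943362 counts, stress libraries 15934907 to 17135770, vehicle libraries 16465961 to 31280267 and CORT libraries 29426183 to 69533214, so low genes were measured most precisely in CORT. Levels are counts scaled to library size and composition (CPM), given as the mean ± SD of 3 libraries, and compare 1 gene between libraries. FPKM, which also divides by transcript length, compares genes with each other. A gene was called where edgeR's quasi-likelihood test gave a Benjamini-Hochberg adjusted p below 0.05 over all genes tested.

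The sorted cells carried the markers of their label. The 6 ISC markers, among them *Lgr5*, *Ascl2* and *Olfm4*, had library medians of 434 to 607 CPM, and *Olfm4* was the most abundant of them in each. Every other marker list had a lower median in every library, but some moved with the groups. The 6 enterocyte markers summed to 482, 485 and 442 CPM in the Ctrl libraries 1, 2 and 3, and to 1140, 695 and 2000 in the stress libraries 1+2, 3 and 4+5+6. None was at 0 in any library, and 5 of 6 rose in stress, by 2.66 to 3.60 on the log2 scale. Without stress 4+5+6 these 5 log2 fold changes were 1.67 to 2.91, with *Sis* not called (adjusted p = 0.0575), and without any one Ctrl library none of the 5 was called (0.0827 to 0.159), nor were *Alpi*, *Apoa4* and *Sis* without stress 1+2 (up to 0.0828). In CORT, 1 of 6 enterocyte markers rose, with sums of 383, 432 and 393 CPM in vehicle and 474, 521 and 497 in CORT. Of 6 Paneth cell markers, 1 (*Mmp7*) rose in stress, where their sum was 263, 169 and 248 CPM against 173, 136 and 158 in Ctrl, with *Lyz1* the most abundant in the stress libraries. In CORT, 4 of 6 Paneth cell markers fell, and their sum was 186, 199 and 211 CPM in vehicle against 104, 116 and 104 in CORT, with *Mmp7* the most abundant in these libraries and none at 0. *Mmp7* alone gave 79.1, 92.6 and 99.9 CPM of the vehicle sums. Its mean FPKM was 18.5 in Ctrl, 77.3 in vehicle and 29.5 in CORT, so its fall in CORT started from a level above Ctrl. Of the ISC markers, *Ascl2* fell in stress, and *Lgr5*, *Ascl2* and *Smoc2* fell in CORT. Among these markers, *Ascl2* in stress and *Mmp7* in CORT kept their call without any one library, *Ascl2* in CORT lost it only without CORT 4 (0.0588), *Mmp7* in stress kept it only without stress 3, and *Lgr5* and *Smoc2* lost it without any one library (up to 0.161). The 3 Paneth markers that fell with *Mmp7* each lost their call without 4 or more of the 6 libraries (up to 0.142). The part of these shifts in the results below was not tested, and in bulk RNA fewer cells of a type and less RNA per cell cannot be told apart.

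**Figure D1:**
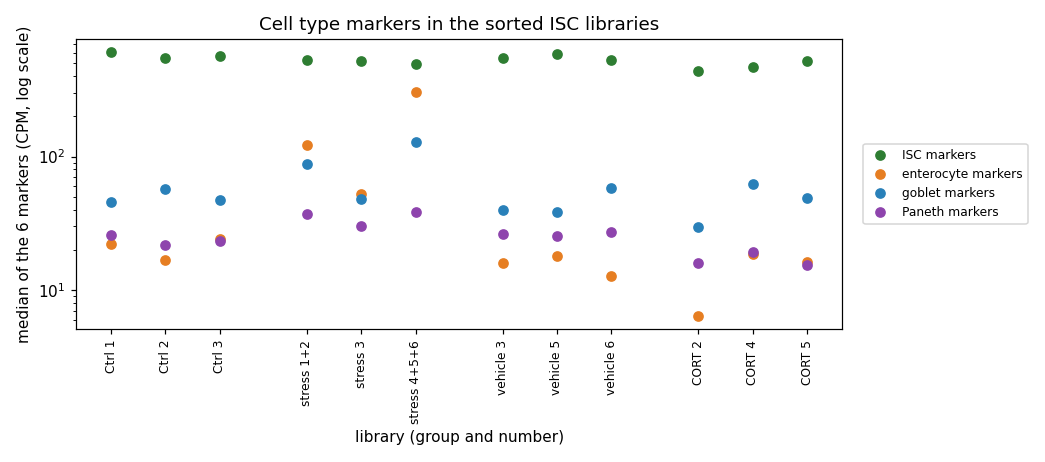
Median level of 6 marker genes of ISCs, enterocytes, goblet cells and Paneth cells (CPM, log axis) in each of the 12 libraries. The enterocyte median was 307 CPM in stress 4+5+6 and 52.0 in stress 3, against at most 24.1 in the Ctrl libraries.

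Of the 10 genes, RefSeq promoter sequences were matched for 8 (build GRCm38.p6, the assembly also called mm10), and none for *Insr* and *Foxo4*. The 250 bases before the annotated start are shown for the 4 genes called in either comparison, to let the sequence ahead of the genes that moved be read beside their values. Capitals mark the GC box GGGCGG, a binding site of SP family factors, and AAACA, the core shared by FoxO binding motifs, each also as its reverse complement (CCGCCC and TGTTT). The *Irs2* window is chr8:11008930-11009179, *Irs1* is chr1:82291440-82291689, *Foxo3* is chr10:42276696-42276945 and *Pik3ap1* is chr19:41385103-41385352, all on the minus strand and written 5′ to 3′ along the gene. The starts are those of RefSeq, and that of *Irs2* lies upstream of the GENCODE gene model given at the end.
Irs2: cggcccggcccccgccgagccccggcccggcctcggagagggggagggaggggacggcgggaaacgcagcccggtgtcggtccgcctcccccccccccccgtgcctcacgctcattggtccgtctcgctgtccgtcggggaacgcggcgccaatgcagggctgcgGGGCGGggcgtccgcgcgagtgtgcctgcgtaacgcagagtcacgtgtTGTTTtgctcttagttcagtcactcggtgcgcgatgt
Irs1: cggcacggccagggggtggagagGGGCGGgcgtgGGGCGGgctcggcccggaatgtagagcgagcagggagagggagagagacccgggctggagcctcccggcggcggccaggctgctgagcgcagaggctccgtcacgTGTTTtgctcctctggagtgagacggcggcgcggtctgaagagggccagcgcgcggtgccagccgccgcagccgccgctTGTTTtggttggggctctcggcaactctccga
Foxo3: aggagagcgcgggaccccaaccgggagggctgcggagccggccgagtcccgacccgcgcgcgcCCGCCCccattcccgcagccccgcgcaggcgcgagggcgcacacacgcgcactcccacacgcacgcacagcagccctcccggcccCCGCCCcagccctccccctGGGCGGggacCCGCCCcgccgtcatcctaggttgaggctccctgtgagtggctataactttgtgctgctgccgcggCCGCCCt
Pik3ap1: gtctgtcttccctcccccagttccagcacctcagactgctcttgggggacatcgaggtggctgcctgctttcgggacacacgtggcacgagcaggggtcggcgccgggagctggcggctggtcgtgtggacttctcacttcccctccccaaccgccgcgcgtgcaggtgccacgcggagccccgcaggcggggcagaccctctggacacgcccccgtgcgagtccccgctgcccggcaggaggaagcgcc

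These windows are rich in G and C, at 72.8% in *Irs2*, 72.4% in *Irs1*, 76.4% in *Foxo3* and 71.2% in *Pik3ap1*, against 53.2% over the upstream windows of all 32851 promoters in the table. The core AAACA or TGTTT occurs in 46.4% of all such windows. It starts 37 bases before the start site in *Irs2*, and 111 and 32 bases before it in *Irs1*, and it is not in the windows of *Foxo3* or *Pik3ap1*. The longer FoxO motif GTAAACA, which holds the core, occurs on either strand in 3.17% of windows and among the matched genes in *Akt1*. The palindromic glucocorticoid receptor motif, AGAACA and TGTTCT with 3 bases of any kind between them, occurs in 0.00913% of windows and the half-site AGAACA or TGTTCT in 16.1%, and neither is in a window of the matched genes. The GC box is in 32.7% of all windows and in those of 7 of the 8 matched genes, all but *Pik3ap1*. A match describes letters only, and no match says only that the letters are not in this window.

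Levels differed widely within the set. By FPKM in Ctrl, *Akt1* was the highest at 93.3 to 98.3 in the 3 libraries, followed by *Foxo4* at 21.1 ± 1.26, *Akt2* at 18.9 ± 1.97, *Foxo3* at 9.02 ± 0.394, *Insr* at 7.52 ± 1.43, *Pik3ap1* at 7.35 ± 0.0808, *Foxo1* at 5.59 ± 0.236, *Igf1r* at 4.24 ± 0.108, *Irs2* at 2.70 ± 0.216 and *Irs1* at 0.309 ± 0.128 (SD, n = 3). The Ctrl libraries of *Foxo4* and *Akt2* overlapped, as did those of *Foxo3* and *Insr* and of *Insr* and *Pik3ap1*, and the other neighbours in this order were apart. *Foxo6*, the remaining FoxO gene, was between 0.418 and 3.31 CPM, with log2 fold changes of 0.28 in stress (adjusted p = 0.885) and -1.30 in CORT (adjusted p = 0.133).

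In stress vs. Ctrl, *Irs2* rose and *Pik3ap1* fell, and both passed 2-fold, while the other 8 genes did not pass the test. In CORT vs. vehicle, *Irs1*, *Irs2* and *Foxo3* rose and *Pik3ap1* fell. The background was 1.3% of 13722 genes higher and 0.59% lower in stress, and 3.64% of 14656 genes higher and 4.5% lower in CORT. With the 2-fold limit added, 0.751% of genes were called in stress and 1.87% in CORT, against 2 of the 10 genes in each. The 10 genes were chosen with earlier results of these data known, so nothing about the pathway is read from these shares. Single libraries carried part of the count past 2-fold. Without stress 4+5+6 *Pik3ap1* in stress had a log2 fold change of -0.91. Without vehicle 5 *Irs1* in CORT had 0.99, and both fall short of 2-fold. The 3 treated libraries lay entirely above or below the 3 controls for 7 of the 10 genes in stress (4 higher, 3 lower), where 20.4% of all genes did so, and for 7 in CORT (3 higher, 4 lower), where 28.7% did. The median log2 fold change over the 10 genes was 0.13 in stress and -0.11 in CORT, against 0.0 and 0.01 over all genes.

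**Figure D2:**
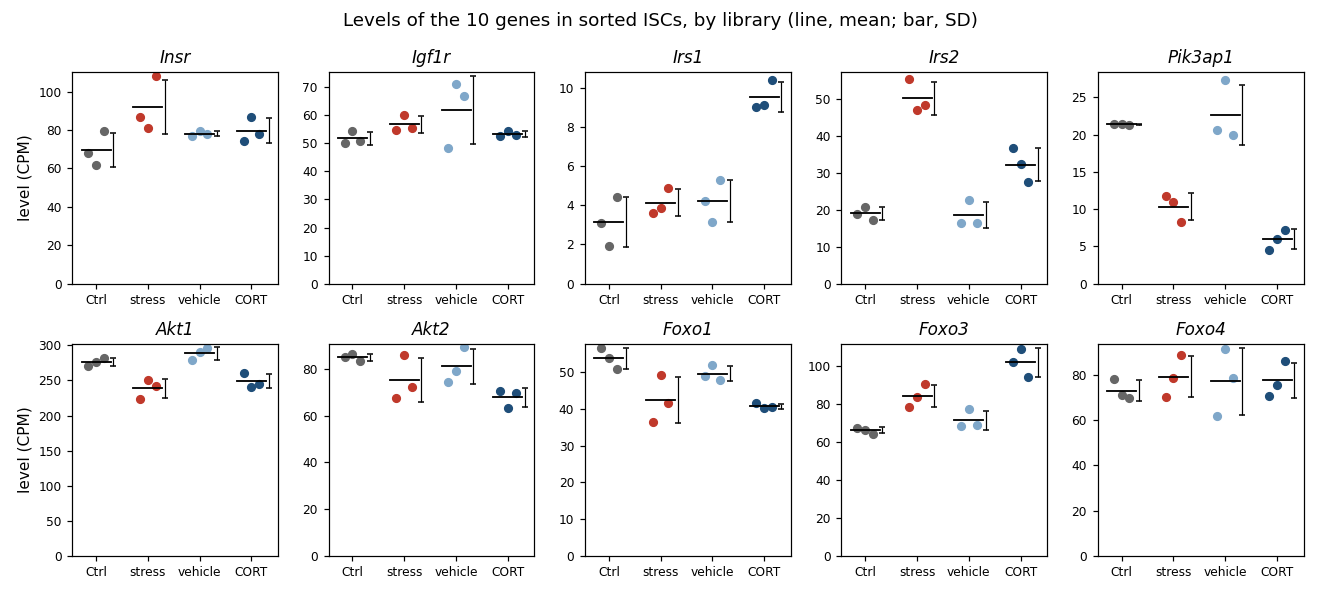
Level of each of the 10 genes (CPM, axes from 0) in every library, with the group mean as a line and the SD as a bar (n = 3 per group). *Irs2* separates both treated groups from their controls upwards and *Pik3ap1* downwards, whereas the *Foxo4* libraries of all groups overlap.

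The receptors did not pass the test in either comparison. *Insr*, the insulin receptor, was at 68.3, 61.9 and 79.4 CPM in Ctrl and at 86.8, 81.0 and 108 under stress. Every stress library was above every Ctrl library, and the log2 fold change was 0.40 with an adjusted p of 0.172 (95% interval 0.11 to 0.69). The stress library with the most *Insr*, 4+5+6, was also the one with the most enterocyte marker RNA, and the one with the least *Insr*, library 3, had the least, and the part of enterocyte RNA in this level was not tested. In the vehicle libraries *Insr* was at 77.0, 79.6 and 77.7 CPM, and in CORT at 74.4, 86.9 and 77.7. These overlapped, with a log2 fold change of 0.03 (95% interval -0.15 to 0.20, adjusted p = 0.891).

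*Igf1r*, the receptor of insulin-like growth factor 1, was at 50.1, 54.4 and 50.8 CPM in Ctrl and at 54.9, 60.3 and 55.4 in stress. The stress libraries lay just above Ctrl, and the log2 fold change of 0.14 did not pass the test (95% interval -0.07 to 0.34, adjusted p = 0.551). It was at 48.3, 71.1 and 66.9 CPM in vehicle and at 52.5, 54.5 and 53.1 in CORT, where vehicle 3 lay below CORT and the other vehicle libraries above it. The log2 fold change of -0.22 had an adjusted p of 0.343, and 0.0326 without vehicle 3. The FPKM of *Insr* was 1.35 to 2.37 times that of *Igf1r* in the 12 libraries, and the 4 groups overlapped in this ratio.

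The adaptor *Irs2*, which links both receptors to PI3K, gave the clearest rise in stress. It was at 18.9, 20.8 and 17.3 CPM in Ctrl and at 55.3, 46.9 and 48.3 in stress, so the lowest stress library held more than the highest Ctrl library by over 2-fold. The fold change was 2.64 (log2 1.40, SE 0.13, adjusted p = 5.7e-04), and it was called in all 13 alternatives, which included leaving out each library. The part of enterocyte RNA in this rise was not tested. In CORT vs. vehicle the rise was smaller, from 16.5, 22.7 and 16.5 CPM to 36.6, 32.4 and 27.6. No CORT library overlapped vehicle, and the log2 fold change was 0.80 (SE 0.16, adjusted p = 0.0184). This call was lost in 6 of 13 alternatives, at adjusted p of 0.051 to 0.0794, among them leaving out vehicle 3 (0.051), vehicle 6 (0.067), CORT 2 (0.0591) or CORT 4 (0.0747).

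*Irs1*, the other main adaptor, was scarce. It was at 4.22, 3.14 and 5.31 CPM in vehicle and at 9.05, 9.14 and 10.4 in CORT, which rest on 71, 54 and 164 counts and on 606, 540 and 302 counts. A read pair makes up to 4 counts, so fewer read pairs than counts lie behind these levels. The CORT libraries all lay above vehicle, by 2.23-fold (log2 1.16, SE 0.22, adjusted p = 0.0142). Without CORT 4 or CORT 5 the adjusted p was 0.0509 or 0.0554. The log2 fold change was 0.42 on log2(FPKM + 1) (adjusted p = 0.0522) and 0.97 on log2(FPKM + 0.1) (adjusted p = 0.0801). In Ctrl *Irs1* was at 3.10, 1.91 and 4.45 CPM and in stress at 3.60, 3.88 and 4.90, which overlapped (log2 fold change 0.39, 95% interval -0.46 to 1.24, adjusted p = 0.697). These libraries held 32 to 85 counts each, and a change of the size seen in CORT lies inside this interval.

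*Irs2* held most of the adaptor RNA in every library, at 79.4 to 95.7% of the FPKM of both genes. Their summed FPKM was 3.01 ± 0.0907 in Ctrl against 7.49 ± 0.671 under stress, and 3.09 ± 0.478 after vehicle against 5.31 ± 0.685 after CORT (SD, n = 3). Both treated groups lay above their controls in this sum. The FPKM of *Irs2* was 18.0 ± 3.97 times that of *Irs1* in stress libraries, which spanned 14.3 to 22.2, and 4.95 ± 1.01 times in CORT libraries, which spanned 3.85 to 5.85. The ratio in Ctrl libraries lay between 5.68 and 16 and in vehicle libraries between 4.51 and 10.6, so each overlapped the group treated.

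**Figure D3:**
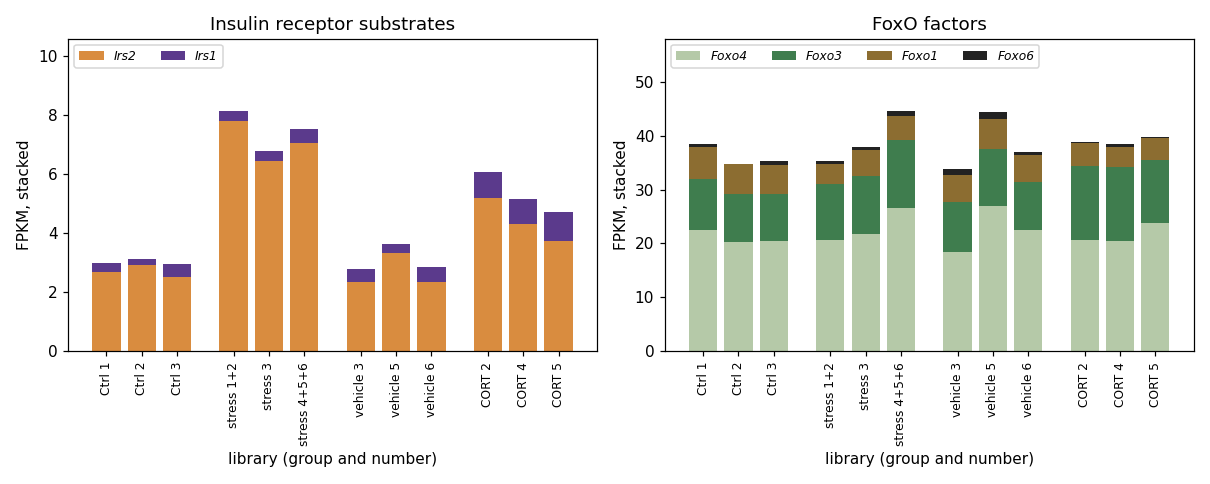
FPKM of *Irs2* and *Irs1* (left) and of the FoxO genes (right), stacked in each of the 12 libraries (axes from 0). The summed adaptor FPKM is at most 3.64 in Ctrl and vehicle libraries and at least 4.72 in stress and CORT libraries, while the FoxO sum lies between 33.8 and 44.5 in all.

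*Pik3ap1* encodes an adaptor of PI3K first described in B cells. It was at 21.4, 21.5 and 21.3 CPM in Ctrl and at 11.7, 11 and 8.25 in stress. All stress libraries were lower, by 2.07-fold (log2 fold change -1.05, SE 0.17, adjusted p = 0.018). The call was lost without Ctrl 1, 2 or 3, at adjusted p of 0.0977, 0.0833 and 0.0846, while the log2 fold change stayed at -1.05. In CORT it fell further, from 20.6, 27.3 and 20.0 CPM in vehicle to 4.57, 6.02 and 7.26, which was 3.83-fold lower (log2 fold change -1.94, SE 0.21, adjusted p = 9.7e-04) and was called in all 13 alternatives. The 6 B cell markers summed to 64.7 to 95.7 CPM, of which *Blnk*, another signalling adaptor, gave 64.0 to 93.8, and the 2 that could be tested did not pass in either comparison.

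The kinase genes were lower in both treated groups without passing the test. *Akt1* was at 271, 277 and 282 CPM in Ctrl and at 224, 250 and 242 in stress, with no overlap (log2 fold change -0.21, 95% interval -0.39 to -0.04, adjusted p = 0.228). It was at 279, 291 and 297 CPM in vehicle and at 260, 241 and 245 in CORT, again with no overlap (log2 fold change -0.22, 95% interval -0.38 to -0.06, adjusted p = 0.0986). These intervals leave out a fall of 2-fold. *Akt2*, the isoform best known for insulin-stimulated glucose uptake, was at 85.0, 86.2 and 83.5 CPM in Ctrl and at 67.7, 85.8 and 72.2 in stress, where stress 3 overlapped Ctrl (log2 fold change -0.17, adjusted p = 0.472). It was at 74.6, 79.2 and 89.3 CPM in vehicle and at 70.4, 63.1 and 69.8 in CORT, where the groups were apart (log2 fold change -0.26, adjusted p = 0.114).

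Among the FoxO factors, *Foxo3* was higher and *Foxo1* lower in every treated library than in any of its controls. *Foxo3* was at 68.1, 77.1 and 68.9 CPM in vehicle and at 102, 109 and 94.2 in CORT, a rise of 1.43-fold (log2 0.51, SE 0.09, adjusted p = 0.00729). This call was lost on FPKM (adjusted p = 0.0575 and 0.0545). In Ctrl *Foxo3* was at 67.4, 66.4 and 64.3 CPM and in stress at 78.5, 83.5 and 90.2, where the log2 fold change of 0.35 had an adjusted p of 0.0853. DESeq2 gave 0.036 for the same libraries, as did edgeR with all 12 libraries in 1 fit.

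*Foxo1* was at 56.6, 54.0 and 50.9 CPM in Ctrl and at 36.5, 49.2 and 41.7 in stress (log2 fold change -0.34, adjusted p = 0.212). Stress 3 lay closest to Ctrl, and without it the adjusted p was 0.0448. It was at 49.1, 52.1 and 47.9 CPM in vehicle and at 41.6, 40.2 and 40.6 in CORT (log2 fold change -0.29, 95% interval -0.47 to -0.11, adjusted p = 0.0574). *Foxo4* overlapped in both comparisons, at 78.4, 71.1 and 69.7 CPM in Ctrl against 70.5, 78.6 and 88.7 under stress. The vehicle libraries held 61.7, 91.4 and 78.8 CPM of it, and the CORT libraries 70.9, 75.8 and 86.2. Its log2 fold changes were 0.12 in stress (95% interval -0.11 to 0.35) and 0.0 in CORT (95% interval -0.31 to 0.31).

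Within the FoxO family the ratio of *Foxo3* to *Foxo1* was higher in the treated libraries, while the family's sum did not separate the groups. By FPKM, *Foxo4* was the most abundant in all 12 libraries. The ratio of *Foxo3* to *Foxo1* was 1.61 ± 0.0208 in Ctrl against 2.60 ± 0.360 under stress, and 1.84 ± 0.0569 after vehicle against 3.21 ± 0.276 after CORT (SD, n = 3). No treated library overlapped its controls in this ratio, which was not tested on its own. The vehicle libraries, at 1.79 to 1.90, also lay above the Ctrl libraries, at 1.59 to 1.63. *Foxo1* made up 9.97 to 13.0% of the FoxO FPKM in stress libraries against 15.1 to 15.9% in Ctrl, and 10.1 to 11.1% in CORT libraries against 12.6 to 15.2% in vehicle.

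**Figure D4:**
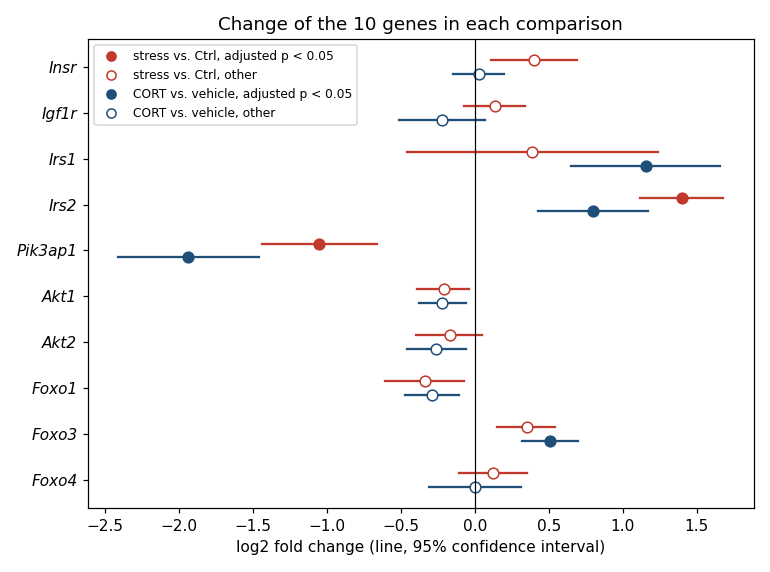
Log2 fold change of each of the 10 genes with its 95% confidence interval, for stress vs. Ctrl and CORT vs. vehicle (filled, adjusted p below 0.05). *Irs2* and *Pik3ap1* are filled in both comparisons, at 1.40 and 0.80 and at -1.05 and -1.94.

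Both called genes of the stress comparison were also called in CORT in the same direction, that is 100% of the 2 stress calls and 50% of the 4 CORT calls. Over all genes, 148 were called in both in the same direction, which are 56.9% of the 260 stress calls and 12.4% of the 1192 CORT calls. Whether the responses differed was tested as an interaction, the stress change minus the CORT change, over all 12 libraries. None of the 10 genes was called by edgeR (0 of 10, against 0.388% of 14415 genes) or by DESeq2. An unadjusted p below 0.05 was found for 3 of the 10, and for 1798 of the 14415 genes. *Pik3ap1* differed by 0.88 on the log2 scale (95% interval 0.30 to 1.47, adjusted p = 0.177), *Irs2* by 0.60 (0.15 to 1.05, adjusted p = 0.243) and *Insr* by 0.37 (0.02 to 0.72, adjusted p = 0.367). *Irs1*, called in CORT and not in stress, differed by -0.77 (-1.67 to 0.12, adjusted p = 0.49). The intervals for *Irs2* and *Pik3ap1* include differences above 1 on the log2 scale, so the 12 libraries set no narrow limit on how alike the responses were.

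The controls of both designs were compared as vehicle vs. Ctrl, groups that differ in the injection and, by the protocols of the study, in feeding. This comparison shares its libraries with the other comparisons. None of the 10 genes was called by edgeR (0 of 10, against 0.799% of 13642 genes) or by DESeq2. An unadjusted p below 0.05 was found for 0 of the 10, and for 1512 of the 13642 genes. The largest log2 fold changes were 0.43 for *Irs1* (adjusted p = 0.741) and 0.27 for *Igf1r* (adjusted p = 0.504). *Foxo3* alone had groups that did not overlap, at 0.11 (-0.08 to 0.31, adjusted p = 0.701). The share of all genes with such groups is not given for this comparison, so nothing is read from this. In the wider lists below, 2 of 100 genes tested were higher in vehicle (*Fkbp5* and *Pdk4*) and 3 were lower (*Sgk1* at -1.25, *Sesn1* at -0.76 and the pseudokinase gene *Trib1* at -0.51 on the log2 scale), so the CORT changes of these genes start from a different level than the stress changes. The calls of *Sgk1*, *Sesn1* and *Trib1* in this comparison were lost without Ctrl 1, Ctrl 2 or vehicle 6, at adjusted p of 0.0591 to 0.232, as were those of *Sesn1* and *Trib1* without Ctrl 3 and of *Trib1* without vehicle 5. All 3 were lost on FPKM (0.0739 to 0.127), and with all 12 libraries in 1 fit *Sgk1* had 0.354 and *Trib1* 0.0693.

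The genes around these 10 were listed by role, 124 in 8 lists. Together, 10 of 102 tested rose and 1 fell in stress, and 15 of 103 rose and 6 fell in CORT, with medians of 0.04 and 0.01. The share of all genes called, to be read beside this and each list's count, was 1.3% higher and 0.59% lower in stress and 3.64% higher and 4.5% lower in CORT. The ligands were hardly made by the sorted cells. *Ins1*, *Ins2* and *Igf1* had no counts in any library, which allows up to 0.173 to 0.753 CPM depending on depth (3 read pairs, counting error only), and *Igf2* was at 1.40 to 4.01 CPM. Of 11 ligands and binding proteins 2 were tested and neither passed in any comparison. Of 11 receptors and adaptors tested, 0 passed in stress and 1 fell in CORT, *Dok4*, a docking protein of the insulin receptor, at 36.0, 36.8 and 32.6 CPM in vehicle and 17.8, 18.2 and 22.5 in CORT (log2 fold change -0.85, adjusted p = 0.00429). Their median log2 fold change was -0.03 in stress and -0.07 in CORT.

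Of 7 PI3K subunits tested, 0 passed in stress, and *Pik3r1*, the main regulatory subunit, rose in CORT, from 293, 320 and 277 CPM to 402, 418 and 424 (log2 fold change 0.48, adjusted p = 0.00792). In stress it was at 280, 300 and 333 CPM against 334, 326 and 348 in Ctrl, and the interaction for *Pik3r1* passed the test at -0.63 (adjusted p = 0.0358), a call lost in 11 of 18 alternatives at up to 0.0992. These were both FPKM fits and leaving out any one library other than stress 3, stress 4+5+6 or vehicle 5. None of the AKT kinases and activators (6 tested in stress, 7 in CORT) and none of the 10 AKT substrates, among them *Gsk3b* and *Tsc2*, passed in stress or CORT, with list medians between -0.03 and 0.20.

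Among the brakes on the pathway, *Fkbp5* rose in both comparisons. This chaperone partner of the glucocorticoid receptor, a well-known target of that receptor and a scaffold for the AKT phosphatase PHLPP, was at 68.1, 65.4 and 58.2 CPM in Ctrl and 186, 192 and 252 in stress (log2 fold change 1.72, adjusted p = 1.5e-04). It was at 138, 183 and 191 CPM in vehicle and 864, 957 and 926 in CORT (log2 fold change 2.42, adjusted p = 3.9e-05), and it was also higher in vehicle than in Ctrl (log2 fold change 1.42, adjusted p = 4.0e-04). The PHLPP phosphatase genes did not pass the test. *Phlpp1* had log2 fold changes of 0.01 in stress (95% interval -0.20 to 0.22) and of -0.20 in CORT (-0.43 to 0.04), and *Phlpp2* of -0.02 (-0.42 to 0.37) and 0.07 (-0.22 to 0.37). In CORT, *Enpp1*, which inhibits the insulin receptor, rose by 0.51 and *Socs3*, which promotes the loss of IRS proteins, fell by 2.06 on the log2 scale. *Socs3* was at 13.8, 21.7 and 51.2 CPM in vehicle and 4.14, 7.07 and 9.97 in CORT, and without vehicle 6, the highest library, its log2 fold change was -1.34. Without any one of vehicle 5, vehicle 6 or CORT 4 neither was called (adjusted p up to 0.131 for *Enpp1* and 0.106 for *Socs3*), nor was *Enpp1* without CORT 5 or *Socs3* without CORT 2. In all, 1 of 15 brakes rose in stress, and 2 of 16 rose and 1 fell in CORT.

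Among FoxO partners and modifiers, *Sgk1* stood far above the rest. It encodes an AKT-like kinase that phosphorylates FoxO3 and is itself a glucocorticoid receptor target. It was at 14.6, 21.4 and 13.8 CPM in Ctrl and 245, 152 and 207 in stress, 12.2-fold higher (log2 3.60, SE 0.21, adjusted p = 6.7e-05). It was at 6.41, 6.80 and 7.51 CPM in vehicle and 667, 383 and 115 in CORT, 55.8-fold higher (log2 5.80, SE 0.59, adjusted p = 7.2e-04). CORT 5 had the lowest level of the CORT libraries by over 3-fold, and still none overlapped vehicle. The CORT call of *Sgk1* was kept in all 13 alternatives, but its log2 fold change ranged from 4.85 to 6.24. The 14-3-3 proteins hold FoxO factors in the cytoplasm, and in CORT the mRNA of 2 of their 7 genes fell, *Ywhag* (log2 fold change -0.45, adjusted p = 0.00455) and *Sfn* (-0.71, adjusted p = 0.0101), while the other 5 did not pass the test, at -0.28 to 0.11. The deacetylase gene *Sirt1* rose (0.42, adjusted p = 0.0478, but not called without vehicle 3, 5 or 6 or CORT 4 or 5, at up to 0.186). Of 20 genes tested in this list, 1 rose in stress, and 2 rose and 2 fell in CORT.

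The FoxO targets held the most calls. Of 31 tested in stress, 8 rose and 1 fell, and of 30 tested in CORT, 10 rose and 2 fell, with a median log2 fold change of 0.29 in both against 0.0 and 0.01 over all genes. This list was written with earlier results of these data known, and several of its genes are glucocorticoid targets as well. Calls in the same direction in both comparisons went to 6 of these genes, which are 66.7% of the stress calls and 50% of the CORT calls (56.9% and 12.4% over all genes), namely *Ccng2*, *Ppargc1a*, *Pdk4*, *Txnip* and *Sesn1*, which rose, and *Ccnd2*, which fell.

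*Pdk4*, the kinase that keeps pyruvate out of the mitochondrial oxidation pathway in fasting, was at 0.935, 1.85 and 1.58 CPM in Ctrl and 91.0, 38.2 and 98.1 in stress (log2 fold change 5.70, adjusted p = 1.2e-04). It was at 9.62, 9.19 and 8.87 CPM in vehicle and 205, 185 and 83.4 in CORT (log2 fold change 4.10, adjusted p = 1.8e-04). Vehicle alone was above Ctrl, by 2.66 on the log2 scale (adjusted p = 0.00339). *Txnip*, which limits glucose uptake, was at 543, 495 and 471 CPM in Ctrl and 1370, 1080 and 1300 in stress (log2 fold change 1.31, adjusted p = 2.3e-04). The vehicle libraries held 481, 453 and 492 CPM, and the CORT libraries 1420, 1130 and 660 (log2 fold change 1.17, adjusted p = 0.0141, but up to 0.0611 without vehicle 5, vehicle 6 or CORT 4). The metabolic coactivator gene *Ppargc1a* rose by 1.13 and 1.47 on the log2 scale, and its stress call was lost without any one Ctrl library (adjusted p up to 0.0827), without the filter on low counts (0.073) and on FPKM (up to 0.0772). The CORT 5 library was the lowest of the CORT libraries for *Pdk4* and *Txnip*, as for *Sgk1*.

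*Sesn1*, an inhibitor of mTORC1 signalling, responded more to CORT. It was at 35.6, 42.1 and 41.3 CPM in Ctrl and 65.6, 51.5 and 67.9 in stress (log2 fold change 0.64, adjusted p = 0.0358, but up to 0.181 without any one library other than stress 3), and at 21.6, 24.0 and 24.6 in vehicle and 138, 137 and 90.7 in CORT (2.38, adjusted p = 1.0e-04). The interaction passed the test at -1.74 (adjusted p = 0.00434). *Bcl6*, a transcriptional repressor that FoxO factors induce, was at 22.9, 19.4 and 18.2 CPM in Ctrl and 13.1, 18.9 and 10 in stress, which overlapped (log2 fold change -0.53, adjusted p = 0.301), and at 13.6, 11.5 and 7.80 in vehicle and 43.9, 46.1 and 26.2 in CORT (log2 fold change 1.83, adjusted p = 0.00313). Its interaction was -2.36 (adjusted p = 0.0173, but up to 0.064 without Ctrl 1, Ctrl 2, stress 1+2 or CORT 4).

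Of the listed cell cycle targets, *Ccng2*, *Ccnd2*, *Cdkn1a*, *Rbl2* and *Ccnb1* were called in at least 1 comparison, and *Cdkn1b*, *Cdkn2b*, *Gadd45a*, *Gadd45b*, *Ccnd1* and *Plk1* in neither. In stress *Cdkn2b* was at 3.88, 1.45 and 8.4 FPKM against 0.0, 0.413 and 0.738 in Ctrl, without overlap. *Cdkn1a* was at 7.88, 4.57 and 16.2 FPKM in stress against 4.46, 4.13 and 3.06, also without overlap. Neither rise passed the test, and what enterocyte RNA added to them was not tested. The FPKM of *Cdkn1b*, *Gadd45a* and *Gadd45b* in stress overlapped Ctrl. *Ccng2*, a cyclin linked to arrest, was at 23.7, 23.6 and 18.2 CPM in Ctrl and 43.3, 54.1 and 40.5 in stress (log2 fold change 1.07, adjusted p = 0.00949, but 0.0669 without the filter on low counts and up to 0.0692 on FPKM). The vehicle libraries held 16, 12.9 and 12 CPM, and the CORT libraries 29.2, 31.8 and 34.4 (log2 fold change 1.22, adjusted p = 0.00134). *Ccnd2*, a D-type cyclin that FoxO factors repress, was at 402, 418 and 493 CPM in Ctrl and 308, 288 and 334 in stress (log2 fold change -0.50, adjusted p = 0.0392, but up to 0.157 without any one library other than stress 3), and fell by 0.87 on the log2 scale in CORT (adjusted p = 0.00226). In CORT the arrest genes *Cdkn1a* and *Rbl2* rose by 1.95 and 0.33, with *Rbl2* at an adjusted p of 0.0445, which was up to 0.169 without any one library other than vehicle 5. In stress the mitotic cyclin gene *Ccnb1* rose by 0.55 (adjusted p = 0.0227, but up to 0.139 without Ctrl 1, Ctrl 3 or stress 1+2). In CORT, the pro-apoptotic gene *Bcl2l11* rose by 0.71 and *Tnfsf10*, which encodes a death ligand, fell by 0.90 on the log2 scale, and the autophagy gene *Atg14* rose by 0.66, the first and last of these not called without CORT 4 (adjusted p = 0.0575 and 0.0912), nor *Atg14* without vehicle 6 (0.052).

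The gluconeogenic targets *Pck1* and *G6pc* rose in stress together with the enterocyte markers. *Pck1* was at 1.69, 1.97 and 2.01 CPM in Ctrl and 24.4, 2.73 and 37.3 in stress (log2 fold change 3.50, adjusted p = 0.0441, but up to 0.204 without any one library other than stress 3, and with a log2 fold change of 2.84 without stress 4+5+6 and 4.03 without stress 3), and its stress libraries kept the order of the enterocyte marker sum, with stress 3 close to Ctrl. *G6pc* had no counts in Ctrl and 3.48, 2.06 and 8.13 CPM in stress, at least 6.29-fold higher against 3 read pairs per Ctrl library (adjusted p = 0.0102, and 0.0509 without Ctrl 1), or at least 3.82-fold without stress 4+5+6. Of the other FoxO targets that rose in stress, *G6pc*, *Pdk4*, *Sesn1* and *Ppargc1a* also kept the order of the enterocyte marker sum. *Txnip*, *Ccng2* and *Ccnb1* did not. The part of enterocyte RNA in all these levels was not tested. In CORT, *Pck1* was at 1.61, 3.64 and 2.37 CPM against 1.31, 2.68 and 1.13 in vehicle.

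**Figure D5:**
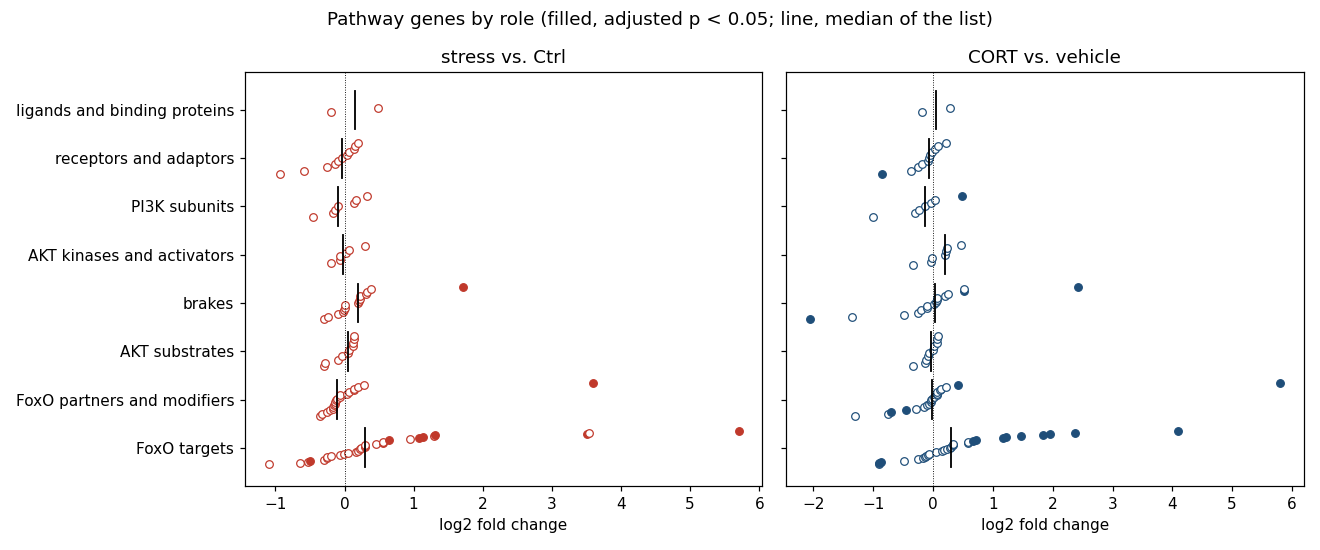
Log2 fold change of every tested gene of the 8 pathway lists, by role, in stress vs. Ctrl (left) and CORT vs. vehicle (right), filled where the adjusted p was below 0.05, with the list median as a line. *G6pc*, at 0 in Ctrl, is not drawn. The filled points gather among the FoxO targets, with *Sgk1* (3.60 and 5.80) and *Pdk4* (5.70 and 4.10) farthest to the right.

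Genes whose levels closely followed each of the 10 over the 12 libraries are given as a description, by Pearson's r of log2 CPM among 14415 genes. All points share the libraries and their 4 groups, so any gene that moved with the treatments scores high. *Irs2* was closest to *Nedd4l* (r = 0.962), *Rnf125* (0.952) and *Clint1* (0.952), *Irs1* to *Epas1* (0.922), *Prkar2a* and *Pigf*, and *Pik3ap1* to *Traf4* (0.974), *Nr2f2* (0.971) and *Nfe2l2* (0.97). *Foxo3* was close to *Jade2* (0.969) and *Tmem123* (0.968), *Foxo1* to *Zfp219* (0.959), *Cnn3* and *Fam117a*, and *Foxo4* to *Abhd4* (0.875), *Fbxl12os* and *Pttg1ip*. *Insr* was close to *Slc9a3* (0.93), a sodium-proton exchanger of the enterocyte brush border, and *Ddhd2*, and *Igf1r* to *Cox6b2* (0.882), *Abhd14a* and *Mboat7*. *Akt1* was closest to *Coro1c* (0.969), *Sf3b4* and *Nup50*, and *Akt2* to *Rilpl2* (0.953), *Rassf3* and *Tifa*.

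The genes lie apart in the genome. In GRCm38 coordinates of the GENCODE annotation, *Irs2* spans chr8:10984681-11008458, *Irs1* chr1:82233101-82291416, *Pik3ap1* chr19:41274218-41385070 and *Foxo3* chr10:42181841-42276755. *Irs2* overlaps the antisense transcript 9530052E02Rik, *Irs1* overlaps Gm9747, *Insr* overlaps Gm16180 and *Foxo1* overlaps Gm20402 on the opposite strand, and no source says that strand was used in counting, so reads from such partners cannot be told apart. No annotated gene overlaps *Foxo3*, *Foxo4*, *Igf1r*, *Akt2* or *Pik3ap1*.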

How the data were processed

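The submitters' processing notes name HISAT2 2.2.1 and StringTie 2.2.1 with mm10, whereas the study's methods name featureCounts for counting. The authors deposited 1 table of estimated counts per gene for all 12 libraries, which StringTie's script makes as covered bases divided by 75, so a pair of 150-base reads makes up to 4 counts. They also deposited FPKM, and coverage as a signal per base, which served here only to check the unit of the counts. Columns without a sample numbered 0. Depth is given with the results, intervals cover the spread between libraries, and nothing says that libraries of a group came from separate litters or days, so p-values measure only the spread between these samples.

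Estimated counts were rounded and tested with edgeR 4.0.16 (TMM, filterByExpr, quasi-likelihood F test, Benjamini-Hochberg over all genes). R was version 4.3.3. A comparison used its own 6 libraries, and the interaction all 12. The SE is the absolute log2 fold change divided by the square root of F, and intervals are 95%. CPM used TMM over 12 libraries. The scripts were tested on simulated data. Alternatives were DESeq2 1.42.0, its size factors in edgeR, no filter, at least 10 counts in every library, 1 fit of all libraries, limma 3.58.1 on log2(FPKM + 1) or log2(FPKM + 0.1), and leaving out each library. The 10 genes and all lists, marker lists included, were chosen with earlier results of these data known. Named were all 10 genes, list genes called in stress, CORT or the interaction, *Foxo6*, *Fkbp5*, *Phlpp1*, *Phlpp2* and *Sgk1*, up to 3 of the most similar genes for each of the 10, and a few others chosen after their values were seen (*Ins1*, *Ins2*, *Igf1*, *Igf2*, *Gsk3b*, *Tsc2*, *Blnk*). Also named were *Trib1*, called in vehicle vs. Ctrl, listed cell cycle targets that were not called, and some markers that were not called, such as *Lyz1*. Promoter motifs AAACA and GGGCGG were chosen after the promoter table was seen. A few genes that the rule names are not reported here. Results of the marker lists not given elsewhere are in the closing observations.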

Additional observations from a re-analysis of the deposited data

Results flagged for a closer look

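In 5 listed genes the stress response and the CORT response differed by the interaction test of edgeR over all 12 libraries (adjusted p below 0.05, against 0.388% of all genes tested). The difference, stress change minus CORT change, was -0.63 for *Pik3r1*, -2.36 for *Bcl6* and -1.74 for *Sesn1* on the log2 scale. All 3 rose in CORT. In stress *Sesn1* rose, and *Pik3r1* (-0.14) and *Bcl6* (-0.53) did not pass the test. Of these, *Sesn1* was called in all 18 alternatives, *Bcl6* in 14 and *Pik3r1* in 7. Leaving out CORT 4 gave *Pik3r1* an adjusted p of 0.0992, and leaving out Ctrl 1 gave *Bcl6* 0.064. Among the cell type markers, the enterocyte marker *Fabp1* differed by 4.65 and the Paneth cell marker *Mmp7* by 2.18, with vehicle above Ctrl for both (1.91 and 2.04). None of the 10 FoxO and insulin signalling genes met this or another criterion for a closer look.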

How the results depend on the processing

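No paired analysis was run, because no source used here pairs libraries across groups. The numbers could not serve for it either. Stress libraries 1+2 and 4+5+6 join several numbers, and CORT and vehicle share only the number 5. *Irs2* in stress and *Pik3ap1* in CORT kept their call in each alternative run. Of the 10 genes, 2 were called in stress, 1 with no filter on low counts and 1 to 3 with a library left out. In CORT 4 were called, 1 on log2(FPKM + 1), 1 on log2(FPKM + 0.1), and 2 to 4 with a library left out. *Foxo3* lost its CORT call on FPKM (adjusted p = 0.0575 and 0.0545), where *Irs1* had 0.0522 and 0.0801 and *Irs2* 0.0776 and 0.0794. The CORT calls of *Rbl2*, *Enpp1*, *Sirt1* and *Atg14* were also lost on FPKM with either pseudocount (0.0511 to 0.186) and that of *Txnip* on log2(FPKM + 1) (0.0512). *Sirt1* had 0.0524 with all 12 libraries in 1 fit, and in vehicle vs. Ctrl *Trib1* had 0.0566 without the filter. DESeq2 added *Foxo1* (0.0414) and *Akt1* (0.0294) in CORT. *Pik3ap1* in stress had an adjusted p of 0.073 without the filter, where more genes were tested. The stress calls of *Sesn1*, *Ccnd2* and *Pck1* were lost without the filter (0.132, 0.129 and 0.194) and on FPKM (up to 0.213), those of *Ccnb1* (0.093) and *G6pc* (0.0828) without the filter, and that of *G6pc* on log2(FPKM + 1) (0.0879). Other causes were not tested.

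Over all genes, 260 were called in stress, 616 by DESeq2, 46 without the filter, 510 with all 12 libraries in 1 fit, 89 and 90 on FPKM with the larger and smaller pseudocount, and 56 (without Ctrl 3) to 849 (without stress 3) with a library left out. In CORT 1192 were called, 1868 by DESeq2 and 503 (without CORT 4) to 1003 with a library left out. In vehicle vs. Ctrl 109 were called, 329 by DESeq2, 35 on FPKM with either pseudocount and 20 to 169 with a library left out. In the interaction 56 were called, 389 by DESeq2, 27 and 22 on FPKM and 12 to 241 with a library left out.

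The log2 fold changes below reversed, and none of them was called with all libraries. On FPKM, in the order of the pseudocounts, *Phlpp1* in stress was -0.0012 and -0.0011, *Foxo4* in CORT -0.0511 and -0.0527 and *Insr* in CORT -0.0457 and -0.0512, and *Foxo1* in the interaction was 0.0002 with the smaller. *Foxo4* in CORT was -0.0007 by DESeq2 and -0.0009 with its size factors, and *Akt1* in the interaction was -0.0173 without the filter. With a library left out, stress values ranged from -0.17 to 0.66 for *Foxo6*, -0.0375 to 0.0726 for *Phlpp1* and -0.13 to 0.0771 for *Phlpp2*. CORT values ranged from -0.14 to 0.14 for *Foxo4* and -0.0389 to 0.0754 for *Insr*. Vehicle vs. Ctrl values ranged from -0.05 to 0.22 for *Foxo4*, -0.2 to 0.0525 for *Irs2* and -0.0704 to 0.17 for *Pik3ap1*. Interaction values ranged from -0.18 to 0.0383 for *Foxo1*, -0.023 to 0.25 for *Foxo4*, -0.0325 to 0.0453 for *Akt1* and -0.0204 to 0.16 for *Akt2*. Counts were low for *Irs1*, at 32 to 85 in Ctrl and stress, and for *Foxo6*, at 7 to 47.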

Other observations

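The remaining marker lists are given as values. Of 6 goblet cell markers, *Clca1* (log2 fold change 1.59) and *Zg16* (3.15) rose in stress, the first not called without any one library other than stress 3 (adjusted p up to 0.194) and the second not without Ctrl 2 or Ctrl 3 (up to 0.0827), and 0 passed the test in CORT by edgeR. The goblet marker *Fcgbp* was the most abundant in each library, at 859 CPM in stress 4+5+6, 528 in stress 1+2 and 257 in stress 3, against 262 to 342 in Ctrl. Of the 3 tuft cell markers tested, *Pou2f3* fell in CORT (-1.14, not called without any one library other than vehicle 3), in a list that summed to 4.18 to 11.2 CPM with *Il25* at 0 in each library, and none of the 6 enteroendocrine markers passed in any comparison, with list sums between 9.5 and 65.1 CPM. Among the other blood cell markers *Itgam* was the most abundant in each library, and the list summed to between 2.06 and 6.81 CPM. Stromal and endothelial markers summed to at most 3.23 CPM, and *Pecam1*, at 1.46, 2.35 and 3.23 CPM in CORT against 0.95, 0.291 and 0.388 in vehicle, rose by 2.12 on the log2 scale (adjusted p = 0.0427, but up to 0.159 without any one library other than vehicle 3). The log2 fold change of *Pecam1* was 2.74 without vehicle 3 and 1.83 without CORT 5. *Acta2* and *Cdh5* had no counts in any library.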
